A study of Mus musculus with 16 samples.

Results

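The MHC class II genes of tumor-associated macrophages (TAMs) were compared between Tim-4+ and Tim-4- cells from the peritoneal cavity of mice carrying ID8 tumors. The set held 10 genes chosen by name out of 55604 listed in the count files. It comprised the peptide-binding chains H2-Aa, H2-Ab1 and H2-Eb1, the invariant chain Cd74, the peptide editor H2-DM (H2-DMa, H2-DMb1 and H2-DMb2), its inhibitor H2-DO (H2-Oa and H2-Ob), and the transactivator Ciita. ID8 is a mouse ovarian cancer line that grows in the peritoneal cavity of C57BL/6 mice, and both groups came from tumor-bearing C57BL/6 mice with no other allele or agent in the labels. The labels carry 4 numbers (793, 784, 783 and 779), and each number has 1 Tim-4+ and 1 Tim-4- library of total RNA, sequenced in 2 lanes. Whether a number is 1 mouse or a pool is not stated, so the p-values measure the spread between these samples. Tim-4+ TAMs were isolated with an antibody against Tim-4 and beads. Tim-4- TAMs were then enriched from the Tim-4- cells with beads against F4/80, so only this subset was selected on F4/80. No antibody against MHC class II was used to separate the subsets. The RNA of the gene used for the separation followed the labels: Timd4 stood at 524 to 1743 CPM (counts scaled to library size with edgeR's TMM factors) in the Tim-4+ libraries and at 1.96 to 84.9 CPM in the Tim-4- libraries. The highest Tim-4- value was in pair 793. The libraries held 53527928 to 57768202 counts in the Tim-4+ group and 55618306 to 69594245 in the Tim-4- group.

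MHC class II molecules present peptides from internalized proteins to CD4+ T cells. An α chain and a β chain assemble in the endoplasmic reticulum with the invariant chain, which blocks the groove and guides the complex to endosomes. There proteases cut the invariant chain down to a short remnant, H2-DM exchanges that remnant for other peptides, and H2-DO restrains H2-DM. Transcription of most of these genes depends on Ciita, a coactivator that does not bind DNA itself but docks on RFX, CREB and NF-Y proteins held at the X and Y boxes of their promoters. Macrophages make Ciita at low levels and raise it in response to interferon-γ. In the peritoneal cavity, resident macrophages carry little MHC class II on their surface and monocyte-derived macrophages carry more.

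The question was which members of this pathway differed between the subsets and by how much. Of the 10 members, 6 fell in Tim-4+ TAMs (H2-Aa, H2-Ab1, H2-Eb1, Cd74, H2-DMb1 and Ciita) and 0 rose, at an adjusted p under 0.05 in edgeR's quasi-likelihood test with the pair as a block. Among all 16861 genes tested, 17.4% passed this threshold, 8.43% as lower and 8.97% as higher in Tim-4+ TAMs. All 10 members passed the filter on low counts. Their median log2 fold change was -1.13, and that of all genes was -0.0012. In each of the 10 the ranges of the groups overlapped, and 12.8% of all genes had no overlap. With only 10 genes, the absence of such gaps cannot be set apart from that share. Within pairs, 7 of the 10 were lower in the Tim-4+ library in all 4 pairs, against 20.2% of all genes. In bulk RNA, fewer cells of a type and less RNA per cell cannot be told apart.

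**Figure D1:**
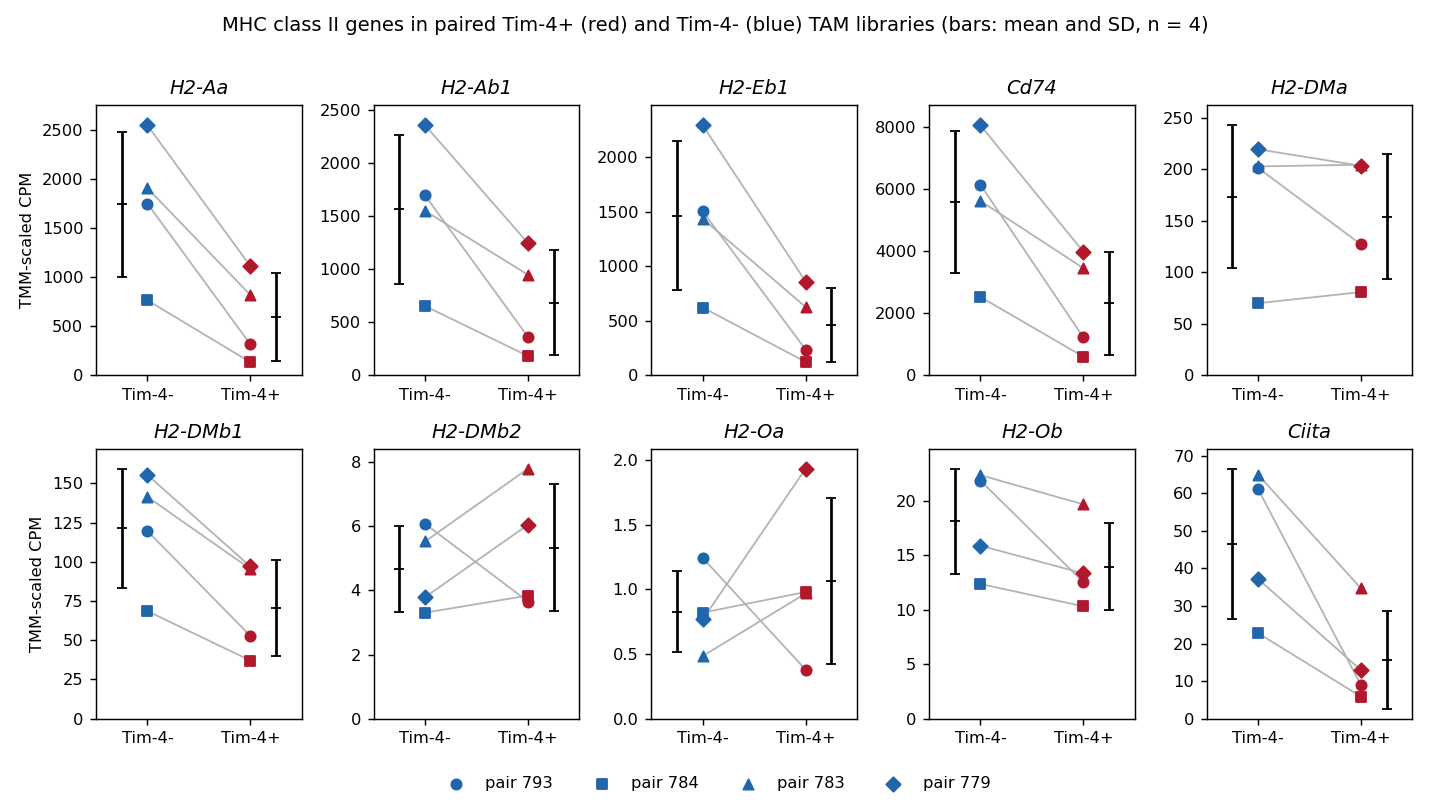
TMM-scaled CPM (vertical axes, linear, each from 0) of the 10 class II genes in the Tim-4- (blue) and Tim-4+ (red) library of each pair; marker shapes are pairs, grey lines join a pair, and black bars give the mean and SD of 4 libraries. The lines of H2-Aa, H2-Ab1, H2-Eb1, Cd74, H2-DMb1, H2-Ob and Ciita go down in all 4 pairs, and pair 784 is lowest in both groups for each of these genes.

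All 3 peptide-binding chains fell. H2-Aa (ENSMUSG00000036594.14, chr17:34282744-34287823, GRCm38, minus strand), the α chain of I-A, stood at 315, 132, 819 and 1114 CPM in the Tim-4+ libraries of pairs 793, 784, 783 and 779, and at 1752, 765, 1910 and 2552 CPM in their Tim-4- partners. It was lower in the Tim-4+ library of every pair, and 2 Tim-4+ libraries were above the lowest Tim-4- one. Its log2 fold change was -1.85 (SE 0.29, adjusted p = 0.0104), or 3.62-fold lower.

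H2-Eb1 (ENSMUSG00000060586.10, chr17:34305867-34316674, plus strand), the β chain of I-E, stood at 235, 121, 624 and 858 CPM in Tim-4+ TAMs and at 1501, 620, 1435 and 2291 CPM in Tim-4- TAMs. The order of the libraries within each subset was close to that of H2-Aa, with pair 779 highest and pair 784 lowest. It fell 3.76-fold (log2 fold change -1.91, SE 0.27, adjusted p = 0.00875). In C57BL/6 mice the α chain of I-E is not made, and the locus listed for it, H2-Ea-ps, had 0 counts in all 8 libraries.

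H2-Ab1 (ENSMUSG00000073421.5, chr17:34257689-34269419, plus strand), the β chain of I-A, stood at 360, 180, 945 and 1244 CPM in Tim-4+ TAMs and at 1694, 651, 1549 and 2356 CPM in Tim-4- TAMs. It fell 2.69-fold (log2 fold change -1.43, SE 0.28, adjusted p = 0.0176). Cd74 (ENSMUSG00000024610.14, on chromosome 18), the invariant chain, had the highest counts of the set. It stood at 1218, 596, 3450 and 3981 CPM in Tim-4+ TAMs and at 6142, 2523, 5618 and 8058 CPM in Tim-4- TAMs. It fell 2.90-fold (log2 fold change -1.53, SE 0.31, adjusted p = 0.0185). The other test of the same counts, DESeq2 with the block, gave Cd74 an adjusted p of 0.0683.

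Ciita (ENSMUSG00000022504.10, chr16:10480059-10528418) stood far below the chains in CPM and fell as well. It was at 8.95, 5.86, 34.7 and 12.9 CPM in Tim-4+ TAMs and at 61.1, 22.8, 65.0 and 37.2 CPM in Tim-4- TAMs. Every pair was lower in Tim-4+ TAMs, with log2 ratios from -2.77 in pair 793 to -0.91 in pair 783. Its log2 fold change was -1.78 (SE 0.30, adjusted p = 0.0141), or 3.44-fold lower. Without a filter on low counts its adjusted p was 0.0708. Ciita overlaps Dexi on the other strand (244 to 729 counts per library), and 1.46% of its stretches of 50 bases also occur in another gene.

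The size of the gap varied between pairs, and for the chains and Cd74 it was wider in pairs 793 and 784. In pair 793 these 4 genes were lower by log2 ratios of -2.68 to -2.23 and in pair 784 by -2.53 to -1.85. In pair 783 the ratios were -1.22 to -0.70 and in pair 779 they were -1.42 to -0.92. Leaving out pair 784 left 0 of the 10 members below an adjusted p of 0.05, with values of 0.0650 for H2-Aa, 0.0643 for H2-Eb1, 0.101 for H2-Ab1, 0.107 for Cd74, 0.0786 for Ciita and 0.0630 for H2-DMb1. All 6 stayed lower by a log2 fold change of -0.81 or more in size, and 67 of all genes were then called as lower. Without the pair as a block 0 of the 10 were called, at adjusted p values of 0.138 to 0.287 for these 6, and 85 of all genes were called as lower.

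**Figure D2:**
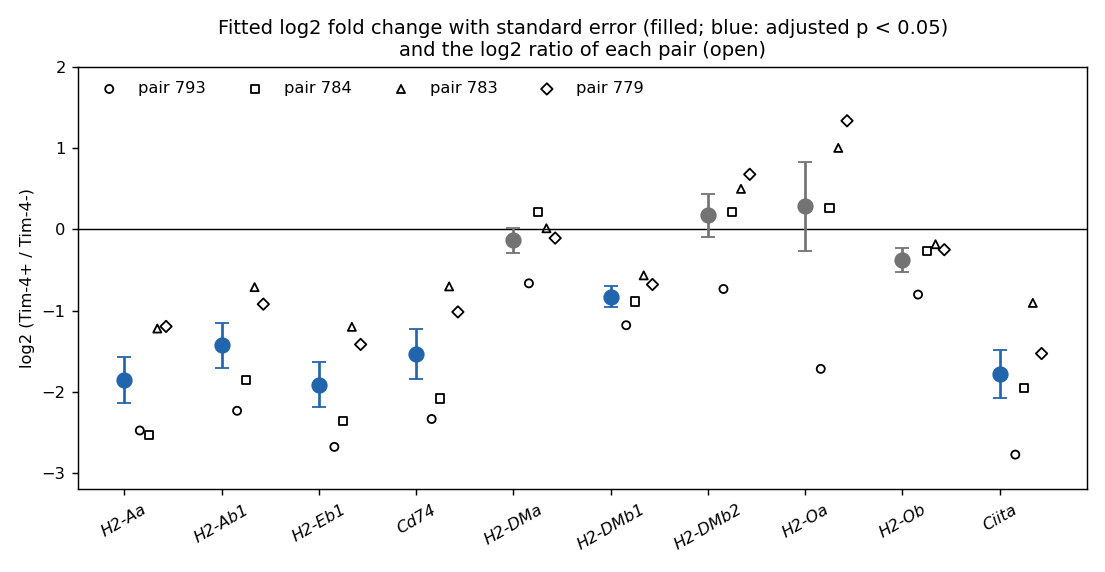
Log2 ratio of Tim-4+ to Tim-4- TAMs (vertical axis) for the 10 class II genes; filled points and bars are the fitted log2 fold change and its standard error, blue where the adjusted p is under 0.05, and open symbols are the log2 ratios of the 4 pairs. The chains, Cd74 and Ciita lie between -1.91 and -1.43, H2-DMb1 lies at -0.83, and the other 4 genes lie between -0.37 and 0.28.

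Promoter sequences are shown for 6 members on chromosome 17, so that the letters of the Y box (ATTGG, capitals, with CTG in capitals where the longer CTGATTGG is present) and of the X box (AGCAAC, capitals) can be set beside the fold changes. RefSeq start windows of GRCm38.p6, 250 bases before to 50 after the start site, were used for 7 of the 10 members, and H2-DMa had 2 of them. Each stretch below runs 5′ to 3′ on the gene's strand from 110 to 36 bases before its start.
H2-Aa (chr17:34287859-34287933, minus strand): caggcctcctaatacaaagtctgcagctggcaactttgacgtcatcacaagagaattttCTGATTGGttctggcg
H2-Eb1 (chr17:34305757-34305831, plus strand): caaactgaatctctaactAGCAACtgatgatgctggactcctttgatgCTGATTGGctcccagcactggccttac
H2-DMb1 (chr17:34153081-34153155, plus strand): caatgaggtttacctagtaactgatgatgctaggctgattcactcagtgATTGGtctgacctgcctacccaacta
H2-DMb2 (chr17:34145139-34145213, plus strand): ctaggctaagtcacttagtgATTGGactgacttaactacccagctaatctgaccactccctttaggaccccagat
H2-Oa (chr17:34092269-34092343, plus strand): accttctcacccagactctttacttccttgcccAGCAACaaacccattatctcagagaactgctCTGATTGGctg
H2-Ob (chr17:34238795-34238869, plus strand): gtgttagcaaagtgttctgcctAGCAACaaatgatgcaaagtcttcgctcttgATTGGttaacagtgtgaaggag

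All 6 stretches hold ATTGG, beginning 43 to 90 bases before the start, whereas 37.4% of all 32851 RefSeq windows hold it on either strand. The stretches are shorter than those windows, and H2-DMa, whose ATTGG lies outside these bounds, is not printed. That all 6 hold it therefore follows in part from the choice of what to print. The longer CTGATTGG is in those of H2-Aa, H2-Eb1 and H2-Oa, and in 4.10% of all windows. AGCAAC is in those of H2-Eb1, H2-Oa and H2-Ob, and in 14.8% of all windows. In these 3 it begins 33, 34 and 31 bases before ATTGG on the same strand, and 0.240% of all windows hold the pair of letters on 1 strand at 25 to 40 bases (a spacing chosen after the sequences were seen). Another part of the X box letters, ACAGATG, was searched for as well. It lies farther out in H2-Oa (beginning 137 bases before the start) and, on the other strand, in H2-Aa (232 bases before). Of all windows, 5.01% hold it. Only exact letters were searched, so a stretch without them can still hold an X box with other letters. The letters did not sort the members by fold change: CTGATTGG stands before H2-Aa and H2-Eb1, which fell, and before H2-Oa, whose difference did not pass the test. Of the windows of H2-DMa, 1 holds ATTGG, beginning 198 bases before that start.

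Of the H2-DM genes, 1 fell and 2 did not pass the test. H2-DMb1 (ENSMUSG00000079547.3, chr17:34153072-34160230), a β chain of H2-DM, stood at 52.8, 37.0, 95.4 and 97 CPM in Tim-4+ TAMs and at 120, 68.5, 141 and 155 CPM in Tim-4- TAMs. It fell 1.78-fold (log2 fold change -0.83, SE 0.13, adjusted p = 0.00875) and was lower in all 4 pairs. H2-DMa (ENSMUSG00000037649.9, chr17:34119541-34139101), the α chain that H2-DMb1 and H2-DMb2 pair with, stood at 127, 80.6, 204 and 203 CPM in Tim-4+ TAMs and at 201, 69.9, 203 and 219 CPM in Tim-4- TAMs. Only 2 of its 4 pairs were lower in Tim-4+ TAMs, and its log2 fold change was -0.14 (SE 0.15, adjusted p = 0.570). H2-DMb2 (ENSMUSG00000037548.14, chr17:34143307-34151555), the second β chain gene, was low in every library, at 3.65, 3.84, 7.80 and 6.05 CPM in Tim-4+ TAMs and 6.08, 3.31, 5.53 and 3.79 CPM in Tim-4- TAMs. The groups overlapped and no difference passed the test (log2 fold change 0.17, SE 0.27, adjusted p = 0.702).

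The counts of the α chain stood higher against those of H2-DMb1 in Tim-4+ TAMs. There were 2.40, 2.18, 2.14 and 2.10 counts of H2-DMa per count of H2-DMb1 in the Tim-4+ libraries and 1.68, 1.02, 1.43 and 1.41 in the Tim-4- libraries. These ranges did not overlap. The ratio was picked after the values were seen and was not tested. Because H2-DMb1 itself fell, a gene with no change also has a raised ratio to it. How many other genes show such a gap against H2-DMb1 was not counted. H2-DMa overlaps Brd2, a widely expressed gene on the other strand with 12808 to 20414 counts per library, over 3094 bases, and 8.43% of its stretches of 50 bases occur there. Of the stretches of H2-DMb1, 22.7% also occur in H2-DMb2, and 25.9% of those of H2-DMb2 occur elsewhere, mostly in H2-DMb1. Strand use in the counting is not stated, so the split of reads between these genes is uncertain.

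H2-DO, which is best known from B cells, was measured at low levels. H2-Ob (ENSMUSG00000041538.15, chr17:34238903-34254414), its β chain, stood at 12.5, 10.3, 19.7 and 13.4 CPM in Tim-4+ TAMs and at 21.9, 12.4, 22.4 and 15.9 CPM in Tim-4- TAMs. It was lower in all 4 pairs, but the groups overlapped and the difference missed the threshold (log2 fold change -0.37, SE 0.15, adjusted p = 0.120). H2-Oa (ENSMUSG00000024334.8, chr17:34092340-34095234), its α chain, had the lowest level of the set, with 18 to 93 counts in the Tim-4+ libraries and 38 to 83 in the Tim-4- libraries. Its values were 0.378, 0.98, 0.968 and 1.93 CPM against 1.24, 0.820, 0.484 and 0.767 CPM, which overlapped (log2 fold change 0.28, SE 0.55, adjusted p = 0.763). Scaled by total counts in place of TMM, a scaling that moves the median of all genes to -0.36, H2-Ob (log2 fold change -0.73, adjusted p = 0.0152) and H2-DMa (-0.50, adjusted p = 0.0291) were called as lower as well.

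Levels of different genes were compared as CPM per kilobase of annotated exon. In Tim-4+ TAMs the order ran from Cd74 (1376 ± 986 CPM per kb, SD, n = 4) through H2-Ab1 (266 ± 193), H2-Eb1 (236 ± 176) and H2-Aa (157 ± 119) to H2-DMa (44.6 ± 17.6) and H2-DMb1 (42.0 ± 18). H2-DMb2 (3.05 ± 1.13 CPM per kb), H2-Ob (2.60 ± 0.748), Ciita (1.64 ± 1.37) and H2-Oa (0.757 ± 0.458) followed. Only the steps from Cd74 to H2-Ab1 and from H2-DMb1 to H2-DMb2 were wider than the SDs of both neighbors. In Tim-4- TAMs Cd74 (3327 ± 1367 CPM per kb) again stood first, and H2-Eb1 (752 ± 351) was ahead of H2-Ab1 (609 ± 273) and H2-Aa (459 ± 195). H2-DMb1 (72.1 ± 22.7 CPM per kb) was ahead of H2-DMa (50.3 ± 20.1), and Ciita (4.88 ± 2.10) came before H2-Ob (3.37 ± 0.899), H2-DMb2 (2.68 ± 0.765) and H2-Oa (0.589 ± 0.223). In this subset 4 steps were wider than the SDs of both neighbors, those from Cd74 to H2-Eb1, from H2-Aa to H2-DMb1, from H2-DMa to Ciita and from H2-DMb2 to H2-Oa.

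The 10 genes together took 0.208%, 0.101%, 0.588% and 0.627% of all counts in the Tim-4+ libraries of pairs 793, 784, 783 and 779. In the Tim-4- libraries they took 1.21%, 0.560%, 1.24% and 1.84%. The mean share was 0.381% ± 0.266 (SD, n = 4) against 1.21% ± 0.522 (SD, n = 4), and the Tim-4+ library had the lower share in all 4 pairs. Cd74 made up 51.0% to 55.6% of these counts in the Tim-4+ libraries and 51.3% to 53.4% in the Tim-4- libraries. H2-DMa made up 2.70% to 6.90% in the Tim-4+ libraries and 1.40% to 1.85% in the Tim-4- libraries.

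Ratios of counts within a library do not depend on how libraries are scaled, and among the chains they varied less than the levels did. H2-Aa differed 8.41-fold between the highest and the lowest Tim-4+ library and 3.34-fold between the Tim-4- libraries. Over the same libraries there were 0.745 to 0.915 counts of H2-Eb1 per count of H2-Aa in Tim-4+ TAMs, against 0.751 to 0.898 in Tim-4- TAMs. The difference in its log2 ratio between the subsets was -0.06 (SD 0.19, n = 4 pairs, exact two-sided sign-flip permutation p = 0.50, adjusted p = 0.571 over 8 ratios). The ratio of Ciita to H2-Aa differed by 0.07 on the log2 scale (SD 0.45, exact permutation p = 0.875), from -0.33 to 0.57 over the pairs and with 2 of 4 pairs in each direction.

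The other 6 ratios were higher in the Tim-4+ library of all 4 pairs. For H2-Ab1 there were 1.14, 1.36, 1.15 and 1.12 counts per count of H2-Aa in Tim-4+ TAMs, against 0.967, 0.852, 0.811 and 0.923 in Tim-4- TAMs. The log2 difference was 0.43 (SD 0.21) for H2-Ab1 and 0.32 (SD 0.19) for Cd74. For the accessory genes it was 1.03 (SD 0.53) for H2-DMb1, 1.48 (SD 0.62) for H2-Ob, 1.72 (SD 0.75) for H2-DMa and 2.08 (SD 0.89) for H2-Oa. Each of the 6 reached an exact permutation p of 0.13 (2 of the 16 sign assignments), the smallest that 4 pairs can give, and an adjusted p of 0.167, so none could pass 0.05. A ratio to a gene that fell is itself raised for most genes: over the other 16860 genes tested the median log2 difference was 1.86, 81.3% were higher in all 4 pairs, and 20.7% had no overlap between the groups, as was the case for Cd74, H2-Ab1, H2-DMa and H2-Oa. The values of H2-DMa, H2-Ob and H2-Oa lie around that median, and those of H2-Ab1 and Cd74 lie well under it.

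**Figure D3:**
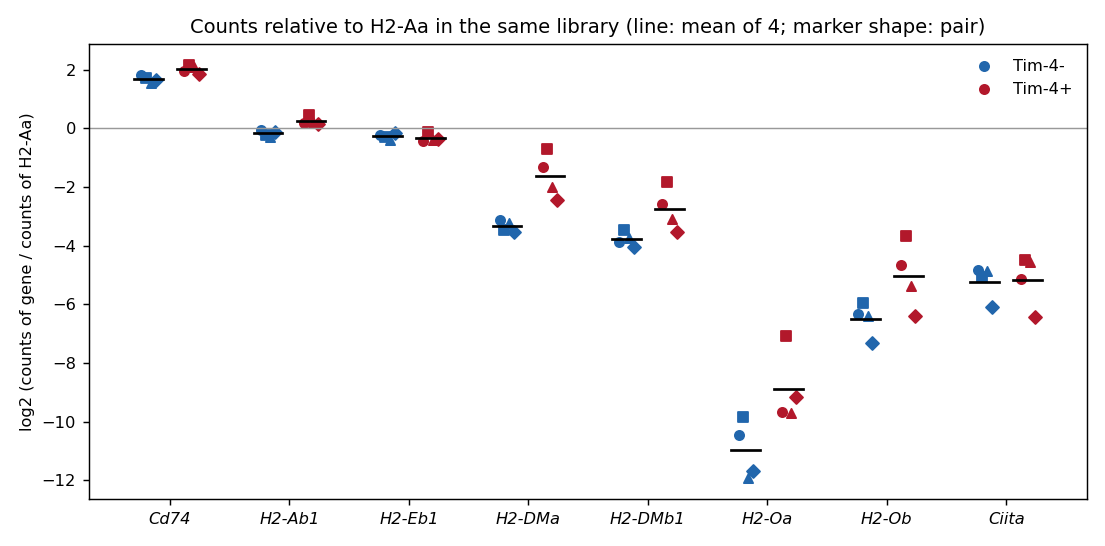
Log2 ratio of each gene's counts to H2-Aa counts in the same library (vertical axis) for Tim-4- (blue) and Tim-4+ (red) TAMs; markers are pairs (circle 793, square 784, triangle 783, diamond 779) and black lines are means of 4. Cd74, H2-Ab1 and H2-Eb1 form tight clusters that differ by 0.43 or less between the subsets, whereas the means of H2-DMa, H2-Oa and H2-Ob differ by 1.48 to 2.08.

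Genes for the proteins that Ciita works with at promoters were read beside it. Of 10 genes listed as such partners, 9 were tested, 0 fell and 2 rose by edgeR's test. Among all genes 8.43% fell and 8.97% rose, and 9 genes are too few to set these counts apart from those shares. The 3 genes of the RFX complex did not pass, with Rfx5 at 18.6 to 26.5 CPM in Tim-4+ TAMs and 20.2 to 26.3 CPM in Tim-4- TAMs (log2 fold change -0.03, SE 0.15, adjusted p = 0.900). The genes that rose were Nfyc, a subunit of NF-Y (37.1 to 52.2 CPM against 29.1 to 35.7 CPM, log2 fold change 0.51, SE 0.11, adjusted p = 0.0191), and Crebbp, a histone acetyltransferase (105 to 143 CPM against 69.2 to 119 CPM, log2 fold change 0.62, SE 0.13, adjusted p = 0.0181). Both calls ended with total-count scaling, under which 3 of the 9 were called as lower and 0 as higher. The untested gene, Nfya, was at 0 to 0.0600 CPM (at most 3 counts) in every library. Nfyb, for another subunit of NF-Y, was at 10.7 to 20.3 CPM. The reason for so low a value of Nfya was not tested.

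Genes of interferon-γ signaling and regulators of Ciita were read in the same way. Irf2, a factor of the interferon regulatory family that binds a promoter of Ciita, rose 2.14-fold (140 to 266 CPM against 82.5 to 146 CPM, log2 fold change 1.10, SE 0.17, adjusted p = 0.00913). The receptor genes Ifngr1 (log2 fold change -0.01, adjusted p = 0.952) and Ifngr2 (0.08, adjusted p = 0.628), and Irf1 (0.03, adjusted p = 0.928), did not pass. Irf1 itself varied from 64.2 to 481 CPM between the Tim-4+ libraries, lowest in pair 784 and highest in pair 779. Ifng, the cytokine gene, was at 0 counts in all Tim-4+ libraries and at no more than 0.0460 CPM in the Tim-4- ones.

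Genes listed for the processing of the invariant chain and antigens, enzymes and an inhibitor among them, were higher in Tim-4+ TAMs where they passed the test. Of 9 processing genes tested, 4 rose and 0 fell, where 8.97% and 8.43% of all genes did. In TMM-scaled CPM all 9 were higher in the Tim-4+ library of every pair, which 22.4% of all genes were. That pattern depends on the scaling: TMM factors were 0.833 to 0.948 in the Tim-4+ libraries and 1.05 to 1.18 in the Tim-4- libraries. As a share of all counts, Ctsb, Ctsh, Ctsl, Lgmn and Sppl2a were lower in the Tim-4+ library of pair 783. Ctsh was at 30242 of 57768202 counts there, against 42382 of 69594245. In pair 793 Ctsh, Ctss and Sppl2a were lower, and in pair 784 Ctss and Sppl2a were. Ctsd, Cst3 and Ifi30 had the higher share in the Tim-4+ library of every pair. Ctsd, the protease cathepsin D, was at 3167, 4622, 5776 and 3780 CPM in Tim-4+ TAMs and at 1865, 1661, 4060 and 1589 CPM in Tim-4- TAMs (log2 fold change 1.0, SE 0.21, adjusted p = 0.0196). Cst3, an inhibitor of cysteine cathepsins, rose 1.85-fold (adjusted p = 0.0145). Ifi30, the thiol reductase of endosomes, rose 1.46-fold (adjusted p = 0.0137), and Ctsl, cathepsin L, rose 1.47-fold (adjusted p = 0.0383). Ctss, cathepsin S, which makes the last cuts in the invariant chain, was at 2605 to 4385 CPM against 2252 to 3461 CPM and did not pass (log2 fold change 0.37, SE 0.16, adjusted p = 0.152). With total-count scaling 2 of the 9 remained called as higher and 0 were lower, with Ctsl and Ifi30 at adjusted p values of 0.218 and 0.170.

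Of 3 genes that set the turnover of class II molecules at the surface, 0 passed, where 17.4% of all genes did. March1, a ubiquitin ligase that removes them, had a log2 fold change of 0.18 (SE 0.16, adjusted p = 0.482), and Cd83, which protects them from it, had 0.06 (SE 0.11, adjusted p = 0.755). H2-Eb2, a class II β chain locus next to H2-Eb1, had 1 to 23 counts in Tim-4+ libraries and 15 to 22 in Tim-4- libraries (log2 fold change -1.15, SE 0.82, adjusted p = 0.366). Leaving out pair 784 took the calls in all of these pathway lists to 0. Leaving out pair 779 took the calls among the Ciita partners from 2 to 0 (adjusted p = 0.0715 for Nfyc and 0.0662 for Crebbp by the same edgeR test) and those among the processing genes from 4 to 1. Without pair 793 Nfyc also lost its call (adjusted p = 0.0756), and 3 processing genes were called.

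**Figure D4:**
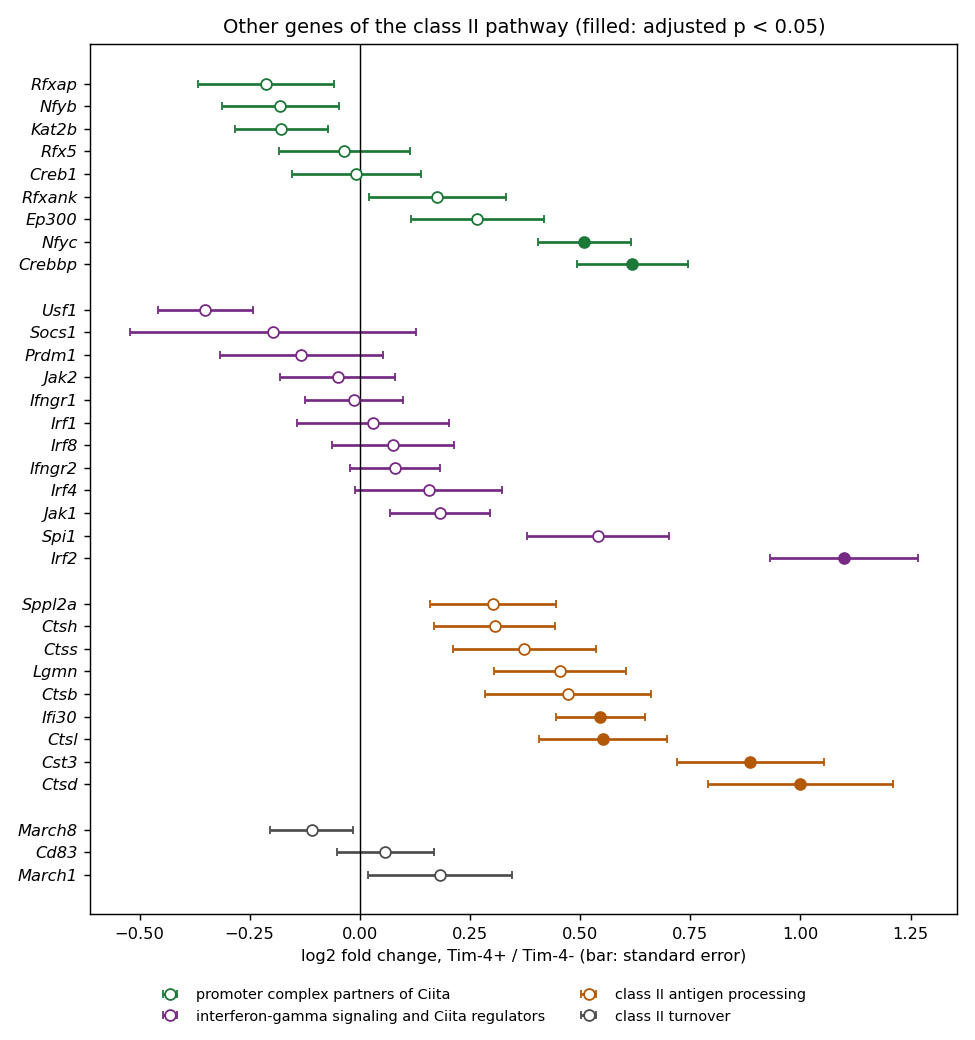
Log2 fold change of Tim-4+ over Tim-4- TAMs (horizontal axis, bars are standard errors) for genes of 4 lists around the class II pathway; filled points have an adjusted p under 0.05. The Ciita partners and interferon-γ genes lie on both sides of 0, with Irf2 (1.10), Crebbp (0.62) and Nfyc (0.51) filled. With TMM scaling all 9 processing genes lie to the right of 0, between 0.30 and 1.0.

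The members on chromosome 17 sit among other genes. From the start of H2-Oa to the end of H2-Ea-ps (chr17:34092340-34344645) the annotation lists 19 genes, 8 of them members. Of the 11 others, 8 were tested, including the peptide transporter genes Tap1 and Tap2 and the proteasome genes Psmb8 and Psmb9 of the class I pathway. None of the 8 was called by edgeR's test in either direction, where 17.4% of all genes were. With only 8 genes, an absence of calls cannot be set apart from that share. The 8 also include the class II locus H2-Eb2 (at most 0.478 CPM), Gm20496 (at most 0.506 CPM) and Gm15821 (at most 0.688 CPM). For these low genes the test had few counts to work on. On the log2 scale the median change over the 8 was -0.30. This stretch was chosen after the values were seen.

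Genes with a pattern like that of the chains were ranked by the mean absolute difference, over the 8 libraries, between their centered log2 CPM and the mean centered profile of H2-Aa, H2-Ab1, H2-Eb1 and Cd74. Among the 8768 genes that averaged 10 CPM or more, the median difference was 1.1. Of the other members, H2-DMb1 (0.491, rank 6) and Ciita (0.528, rank 7) lay close to this profile, and H2-DMa (0.772, rank 133) and H2-Ob (0.811, rank 240) lay farther off. The 10 closest genes outside the set were Bmf (0.452), Arhgef10 (0.553), Fam189b (0.561), Mrc1 (0.569), Ypel2 (0.601), Rcn3 (0.609), Ddit4 (0.621), Il16 (0.622), Ctdsp2 (0.625) and Cyp2s1 (0.627). Mrc1, the mannose receptor CD206, was at 132, 47.2, 341 and 156 CPM in Tim-4+ TAMs and at 306, 149, 498 and 300 CPM in Tim-4- TAMs. The ranking describes these 8 libraries and carries no test.

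The label of macrophages was checked on markers, and markers of other cells were read beside the class II genes. All 8 macrophage markers were measured above the filter. Of these 8, 5 rose (Adgre1, Cd68, Mertk, Lyz2 and Itgam) and Mrc1 fell. The summed level of the 8 was 43257 to 55691 CPM in Tim-4+ libraries and 20867 to 33357 CPM in Tim-4- libraries. Adgre1, Csf1r, Cd68, Mertk and Mrc1 together made up less of these sums than the remaining markers, Lyz2 and Itgam among them. B cells and dendritic cells also make MHC class II. The summed level of 10 B cell markers was 10.8 to 20.8 CPM in Tim-4+ libraries and 14.6 to 29.8 CPM in Tim-4- libraries, lower in all 4 pairs, with Cd79b and Blk called as lower among 8 tested. The B cell surface gene Ms4a1 was at 0.645 to 1.74 CPM against 0.752 to 3.28 CPM. The summed level of 10 dendritic cell markers was 14.6 to 34.5 CPM in Tim-4+ libraries and 12.9 to 20.9 CPM in Tim-4- libraries, with Zbtb46 called as lower and Cd209a as higher among 9 tested. No marker of these lists was at 0 in all libraries. T cell markers summed to 2.08 to 9.10 CPM against 5.19 to 16.5 CPM (10 genes, 4 tested, Cd4 called as lower) and granulocyte markers to 2.16 to 4.36 CPM against 2.01 to 6.53 CPM (3 of 10 tested, 0 called). Of 5 monocyte markers, Ccr2 and Ly6c2 fell and Fn1 rose, and Fn1 makes up most of their summed level. Mesothelial and tumor markers, 8 of 8 of which fell, summed to 103 to 382 CPM against 410 to 1908 CPM. Of all genes tested, 8.43% were called as lower and 8.97% as higher. Among so few genes, the calls in the B cell, dendritic cell, T cell and granulocyte lists cannot be set apart from those shares. The part of these cell type markers in the fall of the class II genes was not tested.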

How the data were processed

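RNA from 4 Tim-4+ and 4 Tim-4- TAM samples was sequenced by the authors (ribosomal RNA depletion, stranded, paired-end), and raw counts per gene were deposited for each of the 16 lanes. The submitters' processing notes name FastQC 0.11.3, TopHat2 2.0.13, Cufflinks and Cuffdiff 2.2.1 on GRCm38 (mm10), whereas the methods name a human reference. The counter and its use of strand are not given in the sources used here. The files list mouse Ensembl identifiers, except 1 lane of the Tim-4- library of pair 793, which lists symbols. It was joined by row order after Timd4, listed out of place, was put back, and 96.8% of comparable symbols matched. Names and positions are from GENCODE M21 (GRCm38).

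The 2 lanes of a library were summed. Genes that reached 10 counts in 4 or more libraries were tested with edgeR 4.0.16 (R 4.3.3): TMM, robust quasi-likelihood fit, pair as block, Benjamini-Hochberg adjustment over all genes tested. The SE is the size of the log2 fold change divided by the square root of F. The study describes the subsets as paired, the pair numbers come from the labels, and deviations of same-numbered libraries from their group means correlated at 0.277 to 0.498 in every pair. Counts of the members ranged from 18 (H2-Oa) to 525128 (Cd74) per library, so counting error is smallest for the chains and largest for H2-Oa. Ratios to H2-Aa used 0.5 added counts. Calculations were tested on simulated data.

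All 10 members are named, with genes of lists written from general knowledge and the 10 genes most like the chains. Of the listed genes, 2 are not reported here. The members and lists were chosen with earlier results of these data known. Alternatives were no block, DESeq2 size factors, total counts, DESeq2 1.42.0, other count filters, lane 2 only, each pair left out and, added after the data were seen, the symbol-listed lane left out.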

Additional observations from a re-analysis of the deposited data

Results flagged for a closer look

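In groups of 4 libraries, 3 values stood apart from the rest by Dixon's criterion, out of 44 groups examined, where chance flags about 1 in 20. All 3 were in pair 784. The flagged ratios share the H2-Aa counts of the same library, so they are not independent of each other. H2-DMa in the Tim-4- library of pair 784 was at 69.9 CPM, whereas the other Tim-4- libraries were at 201 to 219 CPM. The log2 ratio of H2-Ab1 to H2-Aa in the Tim-4+ library of pair 784 was 0.45, whereas the other Tim-4+ libraries were at 0.16 to 0.21. The log2 ratio of H2-Eb1 to H2-Aa in the same library was -0.13, whereas the others were at -0.42 to -0.38.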

How the results depend on the processing

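Over 119 combinations of a member and an alternative, 95 kept direction and side of the threshold, 17 lost the call, 2 gained it and 5 changed sign. The members called as lower went from 6 to 0 without the pair block and to between 0 and 6 with 1 pair left out, with 0 only without pair 784. Without the block the pairing is not used, and adjusted p was 0.186 for H2-Aa, 0.287 for H2-Ab1, 0.149 for H2-Eb1, 0.251 for Cd74, 0.243 for H2-DMb1 and 0.138 for Ciita. Genes called as lower, 1421 of all tested, numbered 85 without the block, 4903 with total counts, 2323 with DESeq2 and 67 to 1975 with 1 pair left out. Genes called as higher, 1512, numbered 147 without the block, 789 with total counts, 2204 with DESeq2 and 91 to 1608 with 1 pair left out. Of calls by total counts 86.1% were lower, against 48.4% with TMM. Cd74 also lost its call without pair 793 (adjusted p = 0.0574) and without pair 779 (0.0524), and Ciita without pair 779 (0.0573). Signs changed for values near 0. With total counts H2-DMb2 was at -0.19 and H2-Oa at -0.085. With 1 pair left out, H2-DMa ran from -0.25 to 0.043 (positive without pair 793), H2-DMb2 from -0.0018 (without pair 779) to 0.47, H2-Oa from -0.11 (without pair 779) to 0.87, and the log2 ratio of Ciita to H2-Aa from -0.10 to 0.20 (negative at -0.10 without pair 784 and -0.018 without pair 783). The causes were not tested. Depth limits H2-Oa, at 18 to 93 counts.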
